A study of Homo sapiens with 60 samples.

Results

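Glucose uptake, glycolysis, pyruvate dehydrogenase kinase and hypoxia-inducible factor (HIF) target genes were followed by RNA sequencing through treatment with osimertinib and its withdrawal in 4 EGFR-mutant non-small cell lung cancer lines, PC9, HCC827, H1975 and HCC2935. The members were taken from a list of 36 gene symbols, of which 34 of the 19712 genes in the deposited tables were found, and the other 2 were not analysed here. Osimertinib is an irreversible inhibitor of mutant EGFR, and drug-tolerant persister cells (DTPs) are the cells that survive it. Lines were taken from the sample titles and the cell line label, whereas the growth note of all 60 samples names NCI-H1975. Each line had 5 arms of 3 libraries labelled as biological triplicates, 60 libraries in 20 groups. The arms were DMSO vehicle for 24 h, acute osimertinib at 500 nM for 24 h, DTPs after 21 days at 500 nM, a short washout of 24 h after those 21 days, and a long washout of drug after the same 21 days. Long washout took 7 days in PC9, 4 days (96 h) in HCC827, 3 days (72 h) in H1975 and 10 days in HCC2935, so its duration and the line cannot be told apart. The vehicle arm was cultured for 24 h only, so the DTP and washout arms had no vehicle arm of the same age. No arm was labelled as hypoxic.

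Glucose enters the cell through facilitative transporters such as SLC2A1 and SLC2A3, is trapped by hexokinase and is split into pyruvate by a chain of cytosolic enzymes. Lactate dehydrogenase reduces pyruvate to lactate, which leaves through the SLC16A monocarboxylate carriers, while the mitochondrial pyruvate dehydrogenase complex sends it to the citric acid cycle unless a pyruvate dehydrogenase kinase (PDK1 to PDK4) has phosphorylated and switched off the complex. HIF1A is the oxygen-labile subunit of a transcription factor that, when oxygen is low, binds the sequence ACGTG or GCGTG near many glycolytic genes, and growth factor signalling and MYC also drive them. Tumour cell lines with active EGFR are known for high glucose use.

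The promoters of HK2, LDHA, PGK1 and CA9 are shown because the first 3 genes fell in all 4 lines under acute drug and CA9 is the textbook HIF target. Each run is the 250 bases before the RefSeq start of the gene (GRCh38.p14, plus strand for all 4, 5′ to 3′), and capitals mark ACGTG or GCGTG on either strand (read as CACGT or CACGC when on the opposite strand).
HK2, chr2:74833877-74834126: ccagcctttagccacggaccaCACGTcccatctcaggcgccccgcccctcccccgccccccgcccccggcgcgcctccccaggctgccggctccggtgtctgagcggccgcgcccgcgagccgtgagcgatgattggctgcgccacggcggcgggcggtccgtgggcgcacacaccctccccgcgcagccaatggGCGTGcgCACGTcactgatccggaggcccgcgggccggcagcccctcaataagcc
LDHA, chr11:18394313-18394562: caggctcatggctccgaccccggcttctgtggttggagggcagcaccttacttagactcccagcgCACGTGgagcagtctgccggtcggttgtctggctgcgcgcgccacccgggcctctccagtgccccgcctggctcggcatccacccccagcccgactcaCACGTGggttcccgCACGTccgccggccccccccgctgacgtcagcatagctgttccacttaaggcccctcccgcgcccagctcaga
PGK1, chrX:78103998-78104247: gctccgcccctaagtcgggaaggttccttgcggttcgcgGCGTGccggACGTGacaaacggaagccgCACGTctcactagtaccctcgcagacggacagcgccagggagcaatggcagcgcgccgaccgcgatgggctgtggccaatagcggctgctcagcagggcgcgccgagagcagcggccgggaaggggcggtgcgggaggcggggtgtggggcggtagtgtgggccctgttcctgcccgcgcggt
CA9, chr9:35673678-35673927: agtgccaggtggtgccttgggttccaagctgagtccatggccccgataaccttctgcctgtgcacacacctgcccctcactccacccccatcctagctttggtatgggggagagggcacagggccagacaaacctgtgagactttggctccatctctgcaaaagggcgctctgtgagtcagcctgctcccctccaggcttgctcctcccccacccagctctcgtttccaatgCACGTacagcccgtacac
HK2 held 2 ACGTG and 1 GCGTG, at 229, 48 and 55 bases before the start. In LDHA the palindrome CACGTG, which counts as ACGTG on both strands and is also the site of the MYC family, began 185 and 87 bases before the start, next to a further ACGTG at 73. PGK1 carried GCGTG at 211 and ACGTG at 202 and 183 bases, and CA9 a single ACGTG at 18 bases. Of the 34 members, 29 matched a RefSeq promoter, and ACGTG or GCGTG was present in 17 of them (58.6%), against 43.1% of all 27305 promoters of the same length. ACGTG alone was in 37.9% against 18.7%, GCGTG alone in 37.9% against 31.9%, and CACGTG in 13.8% against 6.49%. Among the other members lower in all 4 lines under acute drug, ENO1 held 2 GCGTG, GAPDH 2 ACGTG, and GPI and ALDOA 1 ACGTG each. PFKP, PGAM1 and PKM, also lower in all 4, held 0 of either sequence, as did PDK1, SLC2A1, EGLN3, PDK2 and PDK4. A single RefSeq start was taken per gene. For some members the run lay inside the GENCODE gene span, PGK1, PGAM1, PKM, PFKP, GPI, GAPDH and ENO1 among them. A count of 0 and the shares thus cover the runs taken, and other starts were not examined. A match is a description of the letters, and the binding of a factor was not measured.

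Library depth ran from 34.7 to 47.1 M counts in PC9, 17.7 to 25.1 in HCC827, 38.7 to 49.1 in H1975 and 18.6 to 25.6 in HCC2935. Levels below are CPM (counts relative to library size), scaled within each line by the trimmed mean of M values (TMM), so they compare arms of a line and not lines; levels between genes are in TPM, which also divides by transcript length. A gene is called when edgeR's quasi-likelihood test, fitted over the 15 libraries of a line, gave an adjusted p under 0.05 over all genes tested, and folds are log2 with their standard error (SE). Epithelial marker transcripts summed to at least 2297 TPM in every library, but EPCAM in H1975 was 261, 113 and 235 CPM in DMSO and 17.1, 24.4 and 21.4 in DTPs, and CDH1 fell there by 5.14 on the log2 scale. Of the 6 epithelial markers, 3, 5, 4 and 4 were lower in DTPs than in DMSO in PC9, HCC827, H1975 and HCC2935 (medians -0.08, -1.33, -0.69 and -0.52), and 6 were lower in HCC827 long washout (median -1.12). Of the fibroblast markers tested, 2 of 3, 3 of 4, 2 of 4 and 2 of 3 were higher in DTPs (medians 1.53, 2.57, 1.23 and 0.96). Fibroblast markers summed to 5.22 to 199 TPM, leukocyte markers to 10.0 to 175 TPM, almost all CD68, and endothelial markers to 0.255 to 22.0 TPM. The part of these markers in the results was not tested. PC9 long washout replicate 3 stood apart from its group, with the proliferation marker MKI67 at 371, 414 and 249.9 CPM in replicates 1, 2 and 3. HCC827 DTPs replicate 1 and short washout replicate 1 also stood together, below the other DTP and washout libraries of HCC827 in SLC2A3. In bulk RNA, fewer cells that express a gene and less of its RNA per cell cannot be told apart.

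Acute osimertinib lowered most of the glycolytic enzymes in every line. In PC9, 20 of 34 members were lower and 7 higher after 24 h, while 31.7% of all genes tested were lower and 34.5% higher. HCC827 had 27 of 33 lower and 2 higher (all genes 20.2% and 18.7%), H1975 had 19 of 34 lower and 5 higher (23.8% and 27.8%), and HCC2935 had 12 of 33 lower and 9 higher (22.2% and 24.9%). The median log2 fold change of the members tested was -0.44, -0.95, -0.35 and -0.16 in that order of lines, against 0.07, 0.02, 0.10 and 0.07 over all genes. In a joint fit of the 60 libraries, the mean change over the lines was called lower for 22 members and higher for 5, with 29.2% and 35.2% of all genes. HK2, GPI, PFKP, ALDOA, GAPDH, PGK1, PGAM1, ENO1, PKM and LDHA were lower in all 4 lines, and PDK2 and PDK4 were higher in all 4. A further 10 members were called higher in some lines and lower in others.

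In DTPs the glycolytic enzymes were again mostly lower than DMSO, whereas SLC2A3 and ADM were higher in all 4 lines and EGLN3 in 3. In PC9, 20 members were lower and 8 higher (33.5% and 35.7% of all genes), in HCC827 22 and 4 (20.4% and 23%), in H1975 19 and 7 (25.7% and 26%) and in HCC2935 15 and 10 (25.8% and 27%). The median member changed by -0.74, -1.08, -0.45 and -0.27 in the same order, against 0.06, 0.03, 0.02 and 0.04 over all genes. Over the lines together, 23 members were called lower and 7 higher (30.5% and 34.5% of all genes). TPI1 and 9 of the 10 members that acute drug lowered everywhere were lower in DTPs of all 4 lines, the exception being PFKP, which was not called in HCC827. SLC2A3, PDK2 and ADM were higher in all 4. Both comparisons use the same DMSO libraries, so their values stand side by side without a test of likeness.

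**Figure D1:**
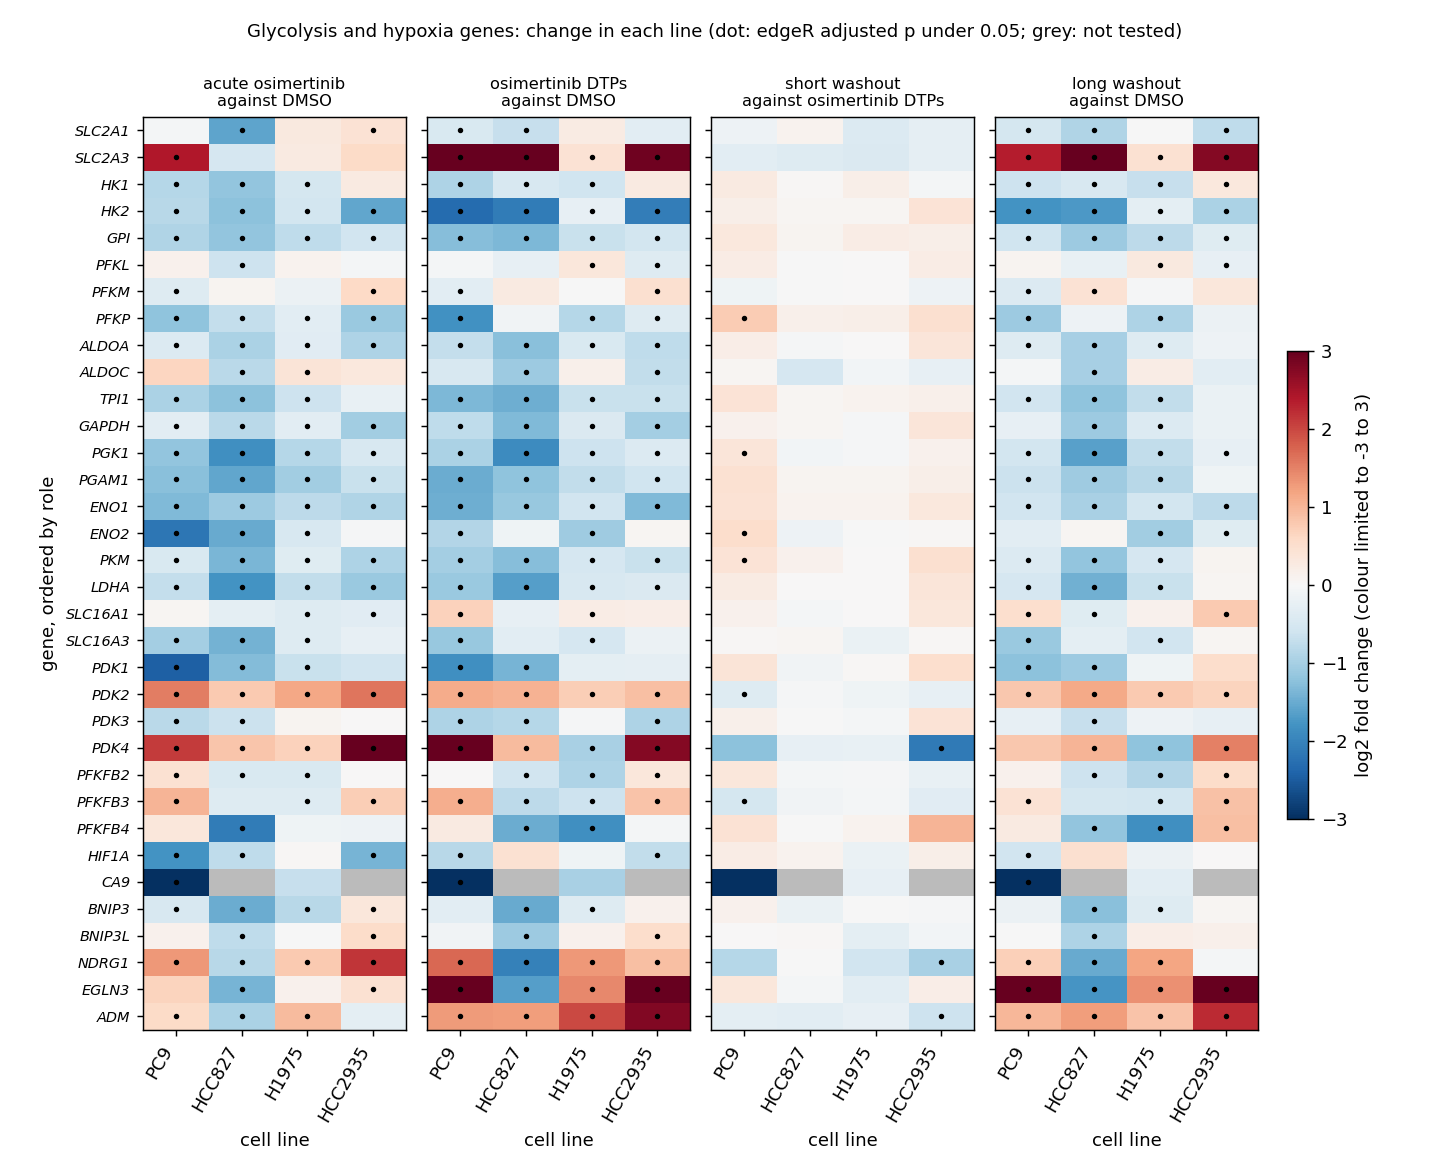
Log2 fold changes of the 34 members (rows, grouped by role) in each line (columns), as a colour scale with called values marked. Each comparison is drawn but DTPs against acute. Enzyme rows are mostly lower under acute drug and in DTPs of all 4 lines, while SLC2A3, PDK2 and ADM are higher in DTPs of all 4 lines.

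Between DTPs and acute drug, fewer members differed than under acute drug or in DTPs against DMSO. Apart from the lower count of PC9 and the higher count of HCC827, the counts lay near the all-gene shares beside them. PC9 had 12 lower and 7 higher (17.8% and 16.1% of all genes), HCC827 4 and 10 (11.5% and 18%), H1975 6 and 6 (18.9% and 18.3%) and HCC2935 9 and 8 (21.9% and 22.8%). These splits depend on the scaling. With library size alone PC9 had 5 lower and 8 higher, and limma on log2 TPM gave 3 lower and 11 higher in PC9, 4 and 7 in H1975 and 6 and 13 in HCC2935. Under limma the median of all genes moved from 0.01 to 0.28 in PC9 in this comparison. ADM was the single member called in the same direction, higher, in all 4 lines. In H1975 the count was 6 without acute replicate 3, against 12 with all libraries.

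Within single lines, few members were called after a day without drug. In the joint fit of the 60 libraries, the mean change over the lines was called higher for 6 members and lower for 3. Medians of that mean were 0.09 for members and -0.01 for all genes, and the share of all genes called is not given here. In PC9, PFKP (0.75), ENO2 (0.53), PKM (0.41) and PGK1 (0.36) were higher than in DTPs and PFKFB3 (-0.52) and PDK2 (-0.39) were lower, with 5.92% of all genes called. HCC2935 had PDK4 (-2.12), NDRG1 (-0.98) and ADM (-0.61) lower and none higher (3.14% of all genes). H1975 and HCC827 had no member called by edgeR (0.0585% and 0% of all genes). At an unadjusted p under 0.05 the members numbered 18 in PC9, 15 in HCC2935, 4 in H1975 and 0 in HCC827. All genes at that mark were 3739 of 14866, 2569 of 14946, 2110 of 15379 and 291 of 14665 in the same order. DESeq2 called 14, 6, 1 and 0 members in that order, and 1833, 959, 509 and 0 of all genes. Limma on log2 TPM called 8, 4, 0 and 0 members, and 863, 475, 12 and 0 of all genes. Limma split its PC9 members into 7 higher and 1 lower, and DESeq2 its HCC2935 members into 3 and 3. Same-numbered DTPs and short washout libraries deviated together in HCC827 and H1975. With the replicate number as a block, members called stayed at 0 in both lines, and genes called in H1975 went from 9 to 56. With the block fitted to the 6 paired libraries alone, a fit chosen after seeing the data, H1975 had 1697 genes called (0 with those 6 libraries and no block) and 5 members lower, NDRG1 (-0.57), SLC2A3 (-0.43), SLC2A1 (-0.39), EGLN3 (-0.31) and BNIP3L (-0.28), and HCC827 had 2 genes and 0 members. Leaving out any library of the PC9 contrast left 0 to 3 members, and HCC2935 had 1 without short washout replicate 2 or 3.

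After long washout, the counts of members lower than DMSO stood above the all-gene shares in PC9, HCC827 and H1975. The lower count of HCC2935 was near its share and its higher count somewhat above. The higher counts of the other lines were near or below theirs. PC9 had 17 lower and 7 higher (21.5% and 23.4% of all genes), HCC827 22 and 5 (20% and 21.9%), H1975 19 and 6 (26% and 27.3%) and HCC2935 7 and 10 (20.8% and 22.5%). The member medians were -0.36, -0.93, -0.38 and 0.06. In the joint fit of the 60 libraries, the mean change over the lines was called lower for 22 members and higher for 6. Medians of that mean were -0.44 for members and 0.04 for all genes, and the share of all genes called is not given here. Limma on log2 TPM moved the HCC2935 split to 4 lower and 11 higher. HK2, GPI, PGK1 and ENO1 were lower in all 4 lines, and SLC2A3, PDK2 and ADM were higher in all 4. Without PC9 long washout replicate 3, PC9 had 17 lower and 6 higher.

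The size of the change differed among the lines for most members. A test with 3 degrees of freedom in the joint fit found unequal acute changes for 30 of 34 members (41.4% of all genes) and unequal DTP changes for 32 (63.9%). It found 27 for DTPs against acute (54.3%), 31 for long washout (57.1%) and 0 for short washout (0.0121%). ENO1, GPI, SLC16A1 and CA9 were the 4 members whose acute change was not called unequal, and PDK2 and CA9 the 2 for DTPs. CA9 was at or near 0 in 3 lines, and its test is not read.

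Of the glucose transporters, SLC2A3 (GLUT3, a high-affinity transporter, chr12:7919230-7936275 in GRCh38) was the member with the highest mean rise in DTPs. In PC9, SLC2A3 stood at 69.4, 95.99 and 92.97 CPM in DMSO, 416, 578 and 371 in acute, 736, 839 and 858 in DTPs, 752, 563 and 643 in short washout and 366, 243 and 707 in long washout. All acute, DTP and washout libraries of PC9 were above all 3 DMSO libraries. In HCC827, SLC2A3 stood at 2.23, 0.948 and 2.45 CPM in DMSO, 2.03, 1.11 and 0.874 in acute, 7.85, 33.7 and 30.1 in DTPs, 6.61, 22.01 and 25.96 in short washout and 31.9, 36.3 and 13.6 in long washout. In HCC827, acute libraries overlapped DMSO, and every DTP and washout library lay above, with replicate 1 of DTPs and of short washout the lowest of their groups. In H1975, SLC2A3 stood at 54.001, 37.1 and 52.9 CPM in DMSO, 50.04, 58.6 and 65.1 in acute, 75.9, 54.4 and 65.3 in DTPs, 47.7, 42.2 and 55.4 in short washout and 58.3, 58.2 and 81.4 in long washout. In HCC2935, SLC2A3 stood at 9.68, 6.61 and 7.44 CPM in DMSO, 15.1, 11.1 and 9.15 in acute, 48.3, 71.5 and 59.3 in DTPs, 56.2, 44.7 and 47.5 in short washout and 75.9, 32.5 and 52.5 in long washout. H1975 moved least, its DTP libraries clearing the highest DMSO library narrowly, and HCC2935 DTPs stood far above both DMSO and acute. In DTPs against DMSO the log2 fold changes were 3.24 ± 0.31 (SE) in PC9, 3.67 ± 0.64 in HCC827, 0.44 ± 0.18 in H1975 and 2.91 ± 0.27 in HCC2935, all called. The H1975 call was lost when DMSO replicate 2 or 3 or DTPs replicate 1 or 3 was left out (edgeR adjusted p 0.0586 to 0.204). Acute drug raised SLC2A3 in PC9 alone (2.40), the changes elsewhere were -0.50, 0.27 and 0.57, and the test of unequal changes among lines was called. DTPs exceeded acute in PC9 (0.83), HCC827 (4.17) and HCC2935 (2.34). The PC9 part was lost when acute replicate 1 or 3 or DTPs replicate 1, 2 or 3 was left out (edgeR adjusted p 0.0553 to 0.125). In long washout it was higher than DMSO by 2.35, 3.86, 0.46 and 2.76. In H1975 that call was lost when DMSO replicate 2 or long washout replicate 3 was left out (edgeR adjusted p 0.175 to 0.218). Without PC9 long washout replicate 3 the PC9 value was 1.82. SLC2A14, a near-identical copy whose reads can be split with SLC2A3, was also higher in DTPs of all 4 lines (3.36, 3.91, 2.65 and 1.75).

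SLC2A1 (GLUT1, the widely expressed basal transporter, chr1:42925375-42959176) took another course. In PC9, SLC2A1 stood at 332, 301 and 342 CPM in DMSO, 328, 317 and 291 in acute, 219, 231 and 265 in DTPs, 233, 205 and 209 in short washout and 236, 244 and 194 in long washout. In HCC827, SLC2A1 stood at 509, 636 and 397 CPM in DMSO, 177, 136 and 202 in acute, 243, 267 and 449 in DTPs, 251, 365 and 415 in short washout and 248.8, 353 and 221 in long washout. DMSO and acute overlapped in PC9, whereas all HCC827 acute libraries lay below DMSO. In H1975, SLC2A1 stood at 279.7, 198 and 266 CPM in DMSO, 277, 316 and 323 in acute, 333, 310.4 and 245 in DTPs, 217, 245 and 212 in short washout and 214, 201 and 325 in long washout. In HCC2935, SLC2A1 stood at 329.6, 350.2 and 203 CPM in DMSO, 456, 416 and 311 in acute, 251, 217 and 238 in DTPs, 197, 189 and 203 in short washout and 163, 179.9 and 180.5 in long washout. Acute libraries reached into the DMSO range at 277 CPM in H1975 and 311 in HCC2935, and the other acute libraries of these lines lay above it. HCC827 fell by 1.58 on the log2 scale under acute drug (SE 0.27), HCC2935 rose by 0.42 ± 0.16, and PC9 and H1975 were not called (-0.06 and 0.30). The HCC2935 call was lost when DMSO replicate 3 or acute replicate 1 or 2 was left out (edgeR adjusted p 0.117 to 0.201). In DTPs SLC2A1 was lower than DMSO in PC9 (-0.45 ± 0.10) and HCC827 (-0.68 ± 0.26). The latter call was lost when DMSO replicate 1 or 2 or DTPs replicate 1 or 2 was left out (edgeR adjusted p 0.0847 to 0.183). In long washout it was lower in PC9, HCC827 and HCC2935 (-0.53, -0.91 and -0.75), the HCC827 call being lost without DMSO replicate 2 or long washout replicate 3 (edgeR adjusted p 0.0522 to 0.0612). On a per-length scale, PC9 went from 149 TPM of SLC2A1 and 33.1 of SLC2A3 in DMSO to 130.4 and 372 in DTPs, so the order of the pair turned over in that line (means of 3 libraries). In the other lines SLC2A1 stayed above SLC2A3 in DTPs, at 156 against 9.69 TPM in HCC827, 144 against 26.4 in H1975 and 149 against 31.6 in HCC2935.

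**Figure D2:**
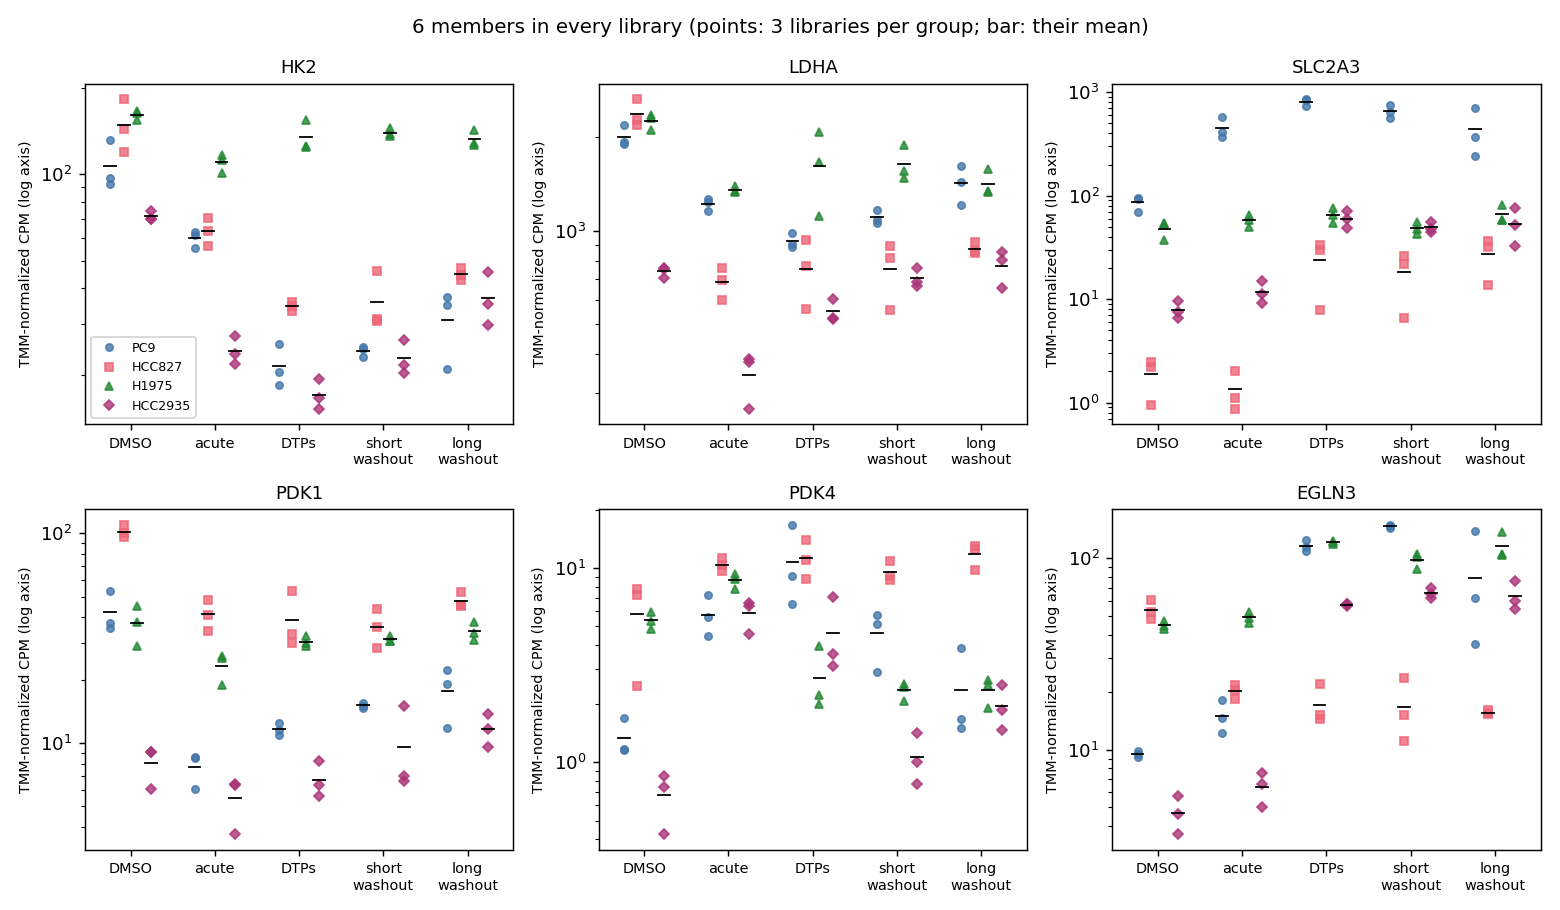
CPM (log axis, TMM-scaled within a line) of HK2, LDHA, SLC2A3, PDK1, PDK4 and EGLN3 in every library, by line and arm; each point is 1 library and the bar is the mean of 3. HK2 and LDHA lie below DMSO under acute drug in all 4 lines, while SLC2A3 lies above DMSO in DTPs of all 4.

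HK2 (hexokinase 2, which phosphorylates glucose at the first step, chr2:74833981-74893359) had the largest mean fall in DTPs among members lower in at least 3 lines. In PC9, HK2 stood at 92.6, 96.8 and 132 CPM in DMSO, 62.9, 55.4 and 61.2 in acute, 25.6, 18.4 and 20.5 in DTPs, 24.7, 24.9 and 23.1 in short washout and 34.9, 37.2 and 20.9 in long washout. In HCC827, HK2 stood at 144, 183 and 119 CPM in DMSO, 63.4, 56.02 and 70.4 in acute, 35.9, 34.7 and 33.4 in DTPs, 31.3, 45.8 and 30.7 in short washout and 44.5, 42.6 and 47.03 in long washout. Both lines stepped down without overlap from DMSO to acute and again from acute to DTPs. In H1975, HK2 stood at 165, 154 and 163 CPM in DMSO, 112, 117 and 101 in acute, 125, 155 and 125 in DTPs, 145, 138 and 136 in short washout and 126, 128 and 142 in long washout. In HCC2935, HK2 stood at 69.9, 74.3 and 69.7 CPM in DMSO, 23.6, 27.4 and 21.9 in acute, 15.2, 19.3 and 16.5 in DTPs, 21.6, 20.3 and 26.4 in short washout and 29.7, 35.1 and 45.7 in long washout. HCC2935 stepped down in the same way, whereas H1975 was lowest under acute drug and its DTPs overlapped DMSO by a single library. The acute changes were -0.84 in PC9, -1.23 in HCC827, -0.55 in H1975 and -1.55 in HCC2935, all called, and the DTP changes were -2.32 in PC9, -2.10 in HCC827, -0.25 in H1975 and -2.07 in HCC2935. The H1975 DTP call was lost when DMSO replicate 1 or 3 or DTPs replicate 1 or 3 was left out (edgeR adjusted p 0.0635 to 0.128). Against acute, DTPs were lower in PC9 (-1.48), HCC827 (-0.87) and HCC2935 (-0.51) and higher in H1975 (0.29). Of these calls, that in HCC2935 was lost without acute replicate 2 or DTPs replicate 1 (edgeR adjusted p 0.0571 to 0.0624), and that in H1975 without acute replicate 3 or DTPs replicate 2 (0.0948 to 0.119). In long washout HK2 was still lower than DMSO (-1.79 in PC9, -1.73 in HCC827, -0.28 in H1975 and -0.95 in HCC2935), and the H1975 call was lost when long washout replicate 1 or 2 was left out (edgeR adjusted p 0.0615 to 0.0703). HK1, the housekeeping hexokinase, fell by 0.85, 1.18 and 0.54 under acute drug in PC9, HCC827 and H1975, and was not called in HCC2935 (0.28).

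PGK1 (phosphoglycerate kinase, an ATP-making step, chrX:77910739-78129296) also fell in every line. In PC9, PGK1 stood at 657, 649 and 705 CPM in DMSO, 311, 278 and 291 in acute, 374, 333 and 336 in DTPs, 446, 452 and 444 in short washout and 459, 527 and 389.9 in long washout. In HCC827, PGK1 stood at 3221, 3273 and 2909.7 CPM in DMSO, 914, 809 and 899.9 in acute, 789, 971 and 789 in DTPs, 683, 940.1 and 784 in short washout and 1022, 1008 and 991 in long washout. DMSO stood above every other arm in both lines, by the widest margin in HCC827. In H1975, PGK1 stood at 1617, 1045 and 1381 CPM in DMSO, 708, 767 and 756 in acute, 888, 1037 and 694 in DTPs, 836, 924 and 787 in short washout and 764, 783 and 882 in long washout. In HCC2935, PGK1 stood at 525, 510.0 and 543 CPM in DMSO, 411, 381 and 347 in acute, 409, 367 and 407 in DTPs, 449, 440.0 and 409 in short washout and 408, 442 and 483 in long washout. No acute, DTP or long washout library of these lines reached its DMSO range either. Acute changes were -1.19 in PC9, -1.84 in HCC827, -0.86 in H1975 and -0.47 in HCC2935, DTP changes -0.95 in PC9, -1.88 in HCC827, -0.63 in H1975 and -0.42 in HCC2935 and long washout changes -0.55 in PC9, -1.64 in HCC827, -0.74 in H1975 and -0.24 in HCC2935, all called. The last of these was lost when DMSO replicate 1, 2 or 3 or long washout replicate 1 was left out (edgeR adjusted p 0.0501 to 0.129). The rise in PC9 after short washout (0.36) was lost when DTPs replicate 2 or 3 or short washout replicate 1, 2 or 3 was left out (edgeR adjusted p 0.0792 to 0.137). The gene span of PGAM4 overlaps that of PGK1 on the opposite strand, and whether their exons share bases was not examined.

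PGAM1 (phosphoglycerate mutase, chr10:97426160-97433441) and ENO1 (enolase 1, chr1:8861000-8879250) act next in the chain. In PC9, PGAM1 stood at 474, 446 and 489 CPM in DMSO, 202, 184 and 200.3 in acute, 183, 161 and 159 in DTPs, 218, 241 and 231 in short washout and 299.5, 372 and 226 in long washout. In HCC827, PGAM1 stood at 747, 837 and 679 CPM in DMSO, 253, 251 and 269.9 in acute, 297, 345 and 341 in DTPs, 285, 381 and 370.0 in short washout and 353, 364 and 355 in long washout. PGAM1 acute and DTP libraries lay below all DMSO libraries in these lines. In H1975, PGAM1 stood at 884, 619 and 812 CPM in DMSO, 337, 373 and 410.2 in acute, 463, 559 and 371 in DTPs, 499, 540.5 and 440.5 in short washout and 422, 434 and 436 in long washout. In HCC2935, PGAM1 stood at 259.5, 271 and 227 CPM in DMSO, 178, 159.8 and 139 in acute, 166, 157 and 174 in DTPs, 185, 190.4 and 188 in short washout and 204, 229 and 264 in long washout. The same held in these lines, and HCC2935 long washout overlapped DMSO. Its acute changes were -1.26 in PC9, -1.55 in HCC827, -1.05 in H1975 and -0.66 in HCC2935 and its DTP changes -1.49 in PC9, -1.20 in HCC827, -0.73 in H1975 and -0.61 in HCC2935, all called. HCC827 DTPs were above acute (0.35). That call was lost when acute replicate 1, 2 or 3 or DTPs replicate 2 or 3 was left out (edgeR adjusted p 0.0761 to 0.152).

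ENO1 gave the same picture. In PC9, ENO1 stood at 1849, 1650.0 and 1840.4 CPM in DMSO, 713, 677 and 746 in acute, 682, 651 and 610.1 in DTPs, 828, 913 and 885 in short washout and 1255, 1485 and 862 in long washout. In HCC827, ENO1 stood at 4581, 4544 and 3915 CPM in DMSO, 2115, 1893 and 2143 in acute, 1602, 2045 and 2251 in DTPs, 1583, 2453 and 2309.6 in short washout and 2172, 2326 and 2129 in long washout. In the long washout arm of PC9, replicate 3 was the lowest of its group. In H1975, ENO1 stood at 3071, 2657 and 2966 CPM in DMSO, 1719, 1776 and 1575 in acute, 1998, 2234 and 1609 in DTPs, 2059, 2341 and 1892 in short washout and 1918, 1919 and 2108 in long washout. In HCC2935, ENO1 stood at 1635, 1775 and 1556 CPM in DMSO, 919.9, 907 and 846 in acute, 657, 596 and 715 in DTPs, 799, 803 and 830.4 in short washout and 747, 1036 and 1121 in long washout. In all 4 lines no acute, DTP or long washout library reached the DMSO range. Acute changes were -1.32 in PC9, -1.08 in HCC827, -0.78 in H1975 and -0.89 in HCC2935, DTP changes -1.46 in PC9, -1.14 in HCC827, -0.57 in H1975 and -1.34 in HCC2935 and long washout changes -0.57 in PC9, -0.98 in HCC827, -0.55 in H1975 and -0.77 in HCC2935, all called. Acute changes of ENO1 were not called unequal among the lines (edgeR adjusted p 0.105). DTPs were below acute in HCC2935 (-0.44).

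Of the 15 glycolytic enzymes from hexokinase to pyruvate kinase, acute drug lowered 13 in PC9, 14 in HCC827, 12 in H1975 and 9 in HCC2935, and raised 0, 0, 1 and 1. DTPs had 13, 11, 12 and 12 lower than DMSO and 0, 0, 1 and 1 higher. Of all genes tested, 31.7%, 20.2%, 23.8% and 22.2% were lower under acute drug and 33.5%, 20.4%, 25.7% and 25.8% in DTPs. Those higher were 34.5%, 18.7%, 27.8% and 24.9% under acute drug and 35.7%, 23%, 26% and 27% in DTPs. GAPDH, which oxidises glyceraldehyde 3-phosphate, changed by -0.31 in PC9, -0.82 in HCC827, -0.33 in H1975 and -1.04 in HCC2935 under acute drug, and ALDOA, the aldolase that splits the hexose, by -0.41 in PC9, -0.95 in HCC827, -0.34 in H1975 and -0.93 in HCC2935. The H1975 acute calls of GAPDH, ALDOA and PFKP were lost without acute replicate 3 (edgeR adjusted p 0.0554, 0.0517 and 0.0577). Isoforms of a step parted. PFKP, the platelet-type phosphofructokinase, fell in all 4 lines (-1.22 in PC9, -0.71 in HCC827, -0.32 in H1975 and -1.12 in HCC2935), while the liver type PFKL changed by 0.14 in PC9, -0.63 in HCC827, 0.11 in H1975 and -0.06 in HCC2935 and was called in HCC827, and the muscle type PFKM fell in PC9 (-0.38) and rose in HCC2935 (0.60). ENO2, the neuronal enolase, fell by 2.17, 1.51 and 0.48 under acute drug in PC9, HCC827 and H1975 and was not called in HCC2935 (-0.03); its DTPs stood above acute in PC9 and HCC827 (1.29 and 1.37) and below it in H1975 (-0.59). ALDOC, the brain aldolase, fell in HCC827 (-0.82) and rose in H1975 (0.39) under acute drug. GPI, TPI1 and PKM, the isomerases and pyruvate kinase, fell by 0.57 to 1.18, 0.62 to 1.23 and 0.37 to 1.36 where called, and TPI1 in HCC2935 was not called (-0.22).

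Summed over the 15 enzymes, the transcripts of PC9 were 17526 ± 967 TPM (SD, n = 3) in DMSO, 12232 ± 668 in acute, 11138 ± 209 in DTPs, 12893 ± 246 in short washout and 15307 ± 1887 in long washout. HCC827 had 23096 ± 2026, 11680.4 ± 939, 9443 ± 799, 9808 ± 1614 and 11068 ± 727 TPM in the same arms. H1975 had 13144 ± 1144, 9153 ± 534, 9125 ± 1550.4, 9492 ± 994 and 9066 ± 450.4. This sum stayed low through both washouts in HCC827 and H1975. HCC2935 had 10517 ± 298, 5699.6 ± 143, 6443 ± 867, 8119 ± 207 and 9721 ± 1644. Long washout means of PC9 and HCC2935 lay nearer to DMSO than to DTPs. These sums are TPM without TMM scaling, so they can part from the calls. In HCC2935 the sum was higher in DTPs than in acute. There 5 of the 15 enzymes were called lower and 1 higher (21.9% and 22.8% of all genes). The median of all genes in that comparison was -0.01 in edgeR and 0.17 in limma on log2 TPM. MKI67, which marks cycling cells, is printed for DMSO, DTPs and long washout of PC9 and H1975. It was 416, 425 and 477 CPM in PC9 DMSO, 150.4, 158 and 175 in DTPs and 371, 414 and 249.9 in long washout. In H1975 it was 818, 676 and 727, 206, 354 and 121 and 152, 230.5 and 165. MKI67 of HCC827 and HCC2935, and of the acute and short washout arms, is given only in the plot by line and arm. Median log2 fold changes of the 5 proliferation genes against DMSO were -1.65, -2.37, -2.16 and -1.95 under acute drug in PC9, HCC827, H1975 and HCC2935. In DTPs they were -1.49, -1.50, -1.70 and -1.92, and after long washout -0.39, -1.48, -1.97 and -0.62. From acute drug to DTPs these medians rose in PC9 and HCC827 while the mean enzyme sum fell. In H1975 the median rose and the sum was near level, and in HCC2935 both were higher. All 5 proliferation genes and all 5 ERK response genes examined (DUSP6, SPRY4, ETV4, ETV5 and PHLDA1) were lower under acute drug in all 4 lines. Of all genes tested, 31.7%, 20.2%, 23.8% and 22.2% were lower in PC9, HCC827, H1975 and HCC2935. The part of the proliferation and ERK response genes in the enzyme levels was not tested.

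**Figure D3:**
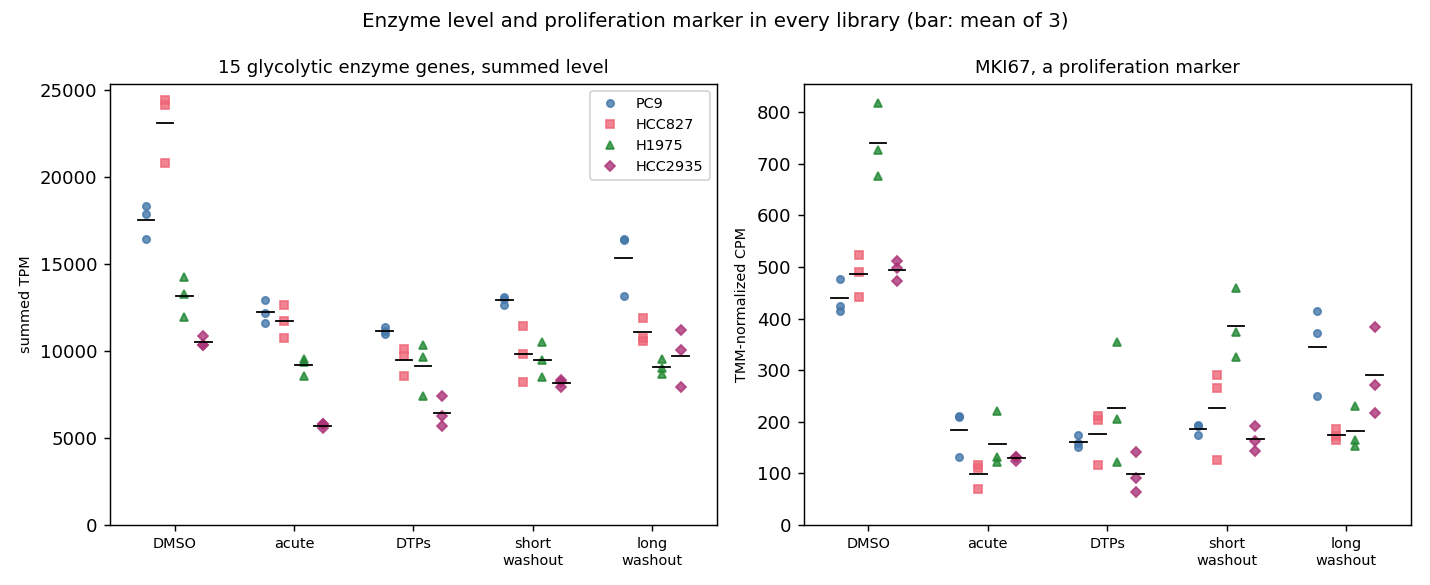
Summed TPM (not TMM-scaled) of the 15 glycolytic enzymes and CPM of MKI67 in every library by line and arm. Points are libraries and bars are means of 3. The mean enzyme sum is highest in DMSO in every line, although 1 HCC2935 long washout library lies above all DMSO libraries, and MKI67 is highest in DMSO.

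LDHA (lactate dehydrogenase A, chr11:18394388-18408425) makes lactate from pyruvate. In PC9, LDHA stood at 1927, 1905 and 2181 CPM in DMSO, 1239.6, 1261 and 1156 in acute, 981, 905 and 884 in DTPs, 1055, 1167 and 1084 in short washout and 1430.2, 1614 and 1208 in long washout. In HCC827, LDHA stood at 2193, 2646 and 2265 CPM in DMSO, 694, 600.1 and 757 in acute, 558, 935 and 768 in DTPs, 555, 891 and 817 in short washout and 858, 920.0 and 844 in long washout. Every drug-exposed library of these lines was below DMSO, and in PC9 DTPs were also below acute. In H1975, LDHA stood at 2294, 2107 and 2350.0 CPM in DMSO, 1339.8, 1389.5 and 1327 in acute, 1658, 2077 and 1113 in DTPs, 1557, 1882 and 1470.3 in short washout and 1337, 1331 and 1576 in long washout. In HCC2935, LDHA stood at 759.9, 755 and 702 CPM in DMSO, 378, 386 and 268 in acute, 525, 519.9 and 604 in DTPs, 759.7, 682 and 664 in short washout and 652, 803 and 854 in long washout. H1975 DTPs spread widely, replicate 3 being the lowest, and HCC2935 climbed back from acute to DTPs and overlapped DMSO in long washout. Acute changes were -0.72 in PC9, -1.79 in HCC827, -0.73 in H1975 and -1.10 in HCC2935 and DTP changes -1.12 in PC9, -1.65 in HCC827, -0.48 in H1975 and -0.43 in HCC2935, all called. The H1975 DTP call was lost when DMSO replicate 1 or 3 or DTPs replicate 1 or 3 was left out (edgeR adjusted p 0.0549 to 0.0935). Against acute, DTPs were lower in PC9 (-0.40) and higher in HCC2935 (0.68). Long washout stayed lower in PC9, HCC827 and H1975 (-0.50, -1.44 and -0.67), while HCC2935 was not called (0.06). SLC16A3 (MCT4, the lactate exporter of glycolytic cells) fell by 1.01, 1.42 and 0.39 under acute drug in PC9, HCC827 and H1975. The H1975 call of SLC16A3 was lost without DMSO replicate 1 or acute replicate 1 (edgeR adjusted p 0.0810 to 0.0971). SLC16A1 (MCT1) was higher in DTPs than in acute in PC9, H1975 and HCC2935 (0.64, 0.61 and 0.55), with 162 to 212 CPM in acute and 288 to 321 in DTPs of PC9.

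The 4 pyruvate dehydrogenase kinases split, PDK1 and PDK3 falling or not called and PDK2 and PDK4 rising under acute drug. PDK1 (chr2:172555373-172608669) is a known HIF target. In PC9, PDK1 stood at 35.5, 37.5 and 53.1 CPM in DMSO, 8.56, 6.06 and 8.53 in acute, 12.5, 10.9 and 11.5 in DTPs, 15.04, 15.6 and 14.7 in short washout and 19.3, 22.4 and 11.8 in long washout. In HCC827, PDK1 stood at 109.8, 95.9 and 100.4 CPM in DMSO, 48.3, 34.3 and 40.8 in acute, 33.2, 53.2 and 30.004 in DTPs, 28.5, 43.4 and 35.97 in short washout and 52.6, 45.8 and 45.2 in long washout. All acute and DTP libraries were below DMSO in these lines. In H1975, PDK1 stood at 45.1, 29.2 and 37.8 CPM in DMSO, 19.03, 25.4 and 25.9 in acute, 29.98, 32.4 and 29.04 in DTPs, 30.8, 30.6 and 32.3 in short washout and 37.8, 30.95 and 33.6 in long washout. In HCC2935, PDK1 stood at 9.06, 9.11 and 6.06 CPM in DMSO, 3.68, 6.36 and 6.402 in acute, 8.201, 5.62 and 6.33 in DTPs, 6.59, 6.997 and 15.1 in short washout and 9.65, 11.7 and 13.7 in long washout. In H1975 acute alone lay clear of DMSO, and in HCC2935 acute and DTPs overlapped DMSO. Acute changes were -2.45 ± 0.22 in PC9, -1.31 ± 0.20 in HCC827 and -0.67 ± 0.15 in H1975, and -0.56 ± 0.31 in HCC2935, which was not called. In DTPs it was lower in PC9 (-1.85) and HCC827 (-1.40). PC9 DTPs were above acute (0.60), a call lost without any 1 of the 6 libraries (edgeR adjusted p 0.0586 to 0.170). PDK3 was lower under acute drug in PC9 (-0.81) and HCC827 (-0.64).

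PDK2 (chr17:50094737-50112152), a widely expressed kinase, was higher in all 4 lines under acute drug, in DTPs and after long washout. In PC9, PDK2 stood at 33.3, 38.8 and 30.2 CPM in DMSO, 97.7, 98.7 and 99.4 in acute, 73.3, 74.03 and 72.7 in DTPs, 57.1, 53.2 and 57.96 in short washout and 56.2, 52.5 and 71.2 in long washout. In HCC827, PDK2 stood at 16.04, 13.4 and 17.3 CPM in DMSO, 27.7, 29.004 and 23.9 in acute, 31.3, 33.2 and 31.1 in DTPs, 31.8, 31.8 and 29.8 in short washout and 34.8, 41.2 and 26.7 in long washout. No library of any drug arm overlapped DMSO in these lines. In H1975, PDK2 stood at 25.99, 28.9 and 20.98 CPM in DMSO, 61.2, 52.02 and 56.9 in acute, 52.9, 39.5 and 34.9 in DTPs, 36.01, 42.5 and 37.4 in short washout and 42.5, 42.1 and 46.2 in long washout. In HCC2935, PDK2 stood at 27.7, 21.3 and 18.99 CPM in DMSO, 75.8, 60.9 and 71.04 in acute, 42.7, 34.8 and 48.9 in DTPs, 40.4, 31.3 and 34.03 in short washout and 39.3, 34.3 and 35.4 in long washout. The same was true of H1975 and HCC2935, with acute the highest arm in both. Acute changes were 1.53 in PC9, 0.79 in HCC827, 1.16 in H1975 and 1.61 in HCC2935, DTP changes 1.10 in PC9, 1.03 in HCC827, 0.75 in H1975 and 0.89 in HCC2935 and long washout changes 0.81 in PC9, 1.13 in HCC827, 0.78 in H1975 and 0.68 in HCC2935. DTPs were lower than acute in PC9 (-0.43), H1975 (-0.42) and HCC2935 (-0.72). The H1975 call was lost when acute replicate 1 or 3 or DTPs replicate 2 or 3 was left out (edgeR adjusted p 0.0812 to 0.144). The further fall in PC9 after short washout was lost when DTPs replicate 1, 2 or 3 or short washout replicate 1, 2 or 3 was left out (edgeR adjusted p 0.0921 to 0.195). The gene span of SAMD14 overlaps that of PDK2 on the opposite strand, and whether their exons share bases was not examined.

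PDK4 (chr7:95583499-95596491), the kinase of fasting and fat use and a FOXO target, was low in every arm and rose most in HCC2935 and PC9. In PC9, PDK4 stood at 1.69, 1.16 and 1.16 CPM in DMSO, 5.57, 4.46 and 7.23 in acute, 6.52, 9.07 and 16.7 in DTPs, 5.73, 2.92 and 5.16 in short washout and 1.502, 1.67 and 3.85 in long washout. In HCC827, PDK4 stood at 7.76, 2.46 and 7.25 CPM in DMSO, 10.4, 11.2 and 9.62 in acute, 11.01, 14.003 and 8.78 in DTPs, 9.15, 10.8 and 8.68 in short washout and 12.98, 9.75 and 12.5 in long washout. In PC9 every acute and DTP library cleared DMSO, and in HCC827 the separation was narrow, with DMSO replicate 2 low. In H1975, PDK4 stood at 5.36, 4.83 and 5.91 CPM in DMSO, 9.29, 8.79 and 7.81 in acute, 3.96, 2.21 and 1.98 in DTPs, 2.53, 2.07 and 2.43 in short washout and 1.899, 2.64 and 2.49 in long washout. In HCC2935, PDK4 stood at 0.748, 0.425 and 0.853 CPM in DMSO, 4.55, 6.41 and 6.59 in acute, 3.61, 7.05 and 3.14 in DTPs, 0.768, 1.01 and 1.41 in short washout and 2.49, 1.86 and 1.47 in long washout. H1975 went up under acute drug and then below DMSO in DTPs, without overlap either way, and HCC2935 returned most of the way within a day of washout. Acute changes were 2.11 ± 0.42, 0.84 ± 0.31, 0.69 ± 0.23 and 3.10 ± 0.40 in PC9, HCC827, H1975 and HCC2935. DTP changes were 3.02 ± 0.43, 0.95 ± 0.31, -0.98 ± 0.24 and 2.76 ± 0.40, unequal among lines (edgeR adjusted p 1.14e-08). The acute call in HCC827 was lost when DMSO replicate 2 or acute replicate 1, 2 or 3 was left out (edgeR adjusted p 0.0619 to 0.110). The acute call in H1975 was lost when DMSO replicate 1 or 2 or acute replicate 1 or 2 was left out (edgeR adjusted p 0.0562 to 0.0734). The DTP call in HCC827 was lost when DTPs replicate 2 was left out (edgeR adjusted p 0.0969). Short washout lowered PDK4 in HCC2935 (-2.12 ± 0.38). After long washout it was higher in HCC827 and HCC2935 (1.01 and 1.52) and lower in H1975 (-1.20). The first of these was lost when long washout replicate 1 was left out (edgeR adjusted p 0.0579).

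The PFKFB enzymes set the level of fructose 2,6-bisphosphate, the activator of phosphofructokinase. PFKFB3, the isoform with the strongest kinase activity, was 50.3 to 55.4 CPM in PC9 DMSO, 93.4 to 119 in acute and 107 to 119 in DTPs, and 190.2 to 293, 347 to 472 and 370.0 to 528 in HCC2935. It rose in these lines under acute drug (1.01 and 0.73) and in DTPs (1.10 and 0.86). In DTPs of HCC827 and H1975 it was lower (-0.78 and -0.61), the HCC827 call being lost without DTPs replicate 1 (edgeR adjusted p 0.0588). PFKFB4 fell in HCC827 under acute drug (-2.09) and in DTPs of HCC827 and H1975 (-1.49 and -1.83), and was not called in PC9 and HCC2935 in either comparison. H1975 PFKFB4 went from 43.5 to 81.5 CPM in DMSO and 44.96 to 70.3 in acute to 16.3 to 19.8 in DTPs. PFKFB2 in DTPs was lower in HCC827 and H1975 (-0.58 and -0.92) and higher in HCC2935 (0.35). The HCC2935 call was lost when DMSO replicate 3 or DTPs replicate 1 was left out (edgeR adjusted p 0.0729 to 0.129). All 3 PFKFB genes were thus lower in DTPs of HCC827 and H1975.

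HIF1A transcript and its targets did not move as a block. HIF1A was 289 to 357 CPM in PC9 DMSO, 80.02 to 103 in acute and 159 to 219 in DTPs, and 487 to 514, 187 to 197 and 298 to 309 in HCC2935. Acute drug lowered it in PC9, HCC827 and HCC2935 (-1.80, -0.77 and -1.39), and in H1975 the change was 0.04 ± 0.11. DTPs were higher than acute in the same 3 lines (0.98, 1.24 and 0.66). The HIF1A protein, which oxygen controls, was not measured.

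EGLN3 (the prolyl hydroxylase PHD3, a HIF target that marks HIF for decay, chr14:33924231-34462774) rose in DTPs of 3 lines and fell in the other. In PC9, EGLN3 stood at 9.52, 9.88 and 9.16 CPM in DMSO, 12.2, 14.6 and 18.3 in acute, 125, 115 and 109.7 in DTPs, 148, 149.8 and 144 in short washout and 62.1, 35.8 and 139.6 in long washout. In HCC827, EGLN3 stood at 60.3, 48.5 and 52.6 CPM in DMSO, 21.9, 20.6 and 18.5 in acute, 22.1, 15.2 and 14.4 in DTPs, 23.7, 15.2 and 11.1 in short washout and 16.04, 15.4 and 15.5 in long washout. PC9 DTPs stood far above acute and DMSO, while every drug-exposed HCC827 library stood below DMSO. In PC9 long washout, replicate 3 was above the other 2. In H1975, EGLN3 stood at 47.2, 44.5 and 42.7 CPM in DMSO, 52.7, 46.05 and 48.9 in acute, 123, 119.6 and 122 in DTPs, 101, 88.3 and 106 in short washout and 106, 105 and 137 in long washout. In HCC2935, EGLN3 stood at 3.62, 5.76 and 4.59 CPM in DMSO, 6.64, 7.57 and 5.03 in acute, 57.8, 56.6 and 57.6 in DTPs, 65.4, 70.2 and 61.8 in short washout and 76.2, 54.7 and 60.04 in long washout. In these lines acute overlapped DMSO, and all DTP and washout libraries were above both. DTP changes were 3.61 ± 0.36, -1.64 ± 0.23, 1.44 ± 0.11 and 3.63 ± 0.18 in PC9, HCC827, H1975 and HCC2935, all called and unequal among the lines (edgeR adjusted p 2.12e-16). Long washout changes were 3.05 in PC9, -1.78 in HCC827, 1.37 in H1975 and 3.78 in HCC2935, and without PC9 long washout replicate 3 the PC9 value was 2.36. Acute drug lowered EGLN3 in HCC827 (-1.40) and raised it in HCC2935 (0.46). The HCC2935 call was lost when DMSO replicate 1 or 3 or acute replicate 1 or 2 was left out (edgeR adjusted p 0.0969 to 0.221).

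ADM (adrenomedullin, a secreted vasodilator peptide and HIF target, chr11:10304680-10307397) was the member raised in DTPs of all 4 lines against both DMSO and acute drug. In PC9, ADM stood at 27.9, 30.1 and 21.3 CPM in DMSO, 39.02, 44.7 and 34.6 in acute, 63.99, 66.4 and 63.5 in DTPs, 50.7, 56.8 and 51.9 in short washout and 53.9, 47.9 and 56.4 in long washout. In HCC827, ADM stood at 24.8, 29.1 and 18.5 CPM in DMSO, 11.3, 13.6 and 12.5 in acute, 30.8, 86.8 and 56.3 in DTPs, 28.4, 53.5 and 58.3 in short washout and 64.4, 67.6 and 41.2 in long washout. DTP libraries cleared DMSO and acute in both lines, DTPs replicate 1 of HCC827 being the nearest to DMSO. In H1975, ADM stood at 8.201, 7.83 and 9.33 CPM in DMSO, 21.5, 16.7 and 10.3 in acute, 41.5, 27.4 and 31.1 in DTPs, 32.7, 22.5 and 28.8 in short washout and 15.6, 14.7 and 15.8 in long washout. In HCC2935, ADM stood at 16.3, 20.7 and 15.5 CPM in DMSO, 16.8, 13.98 and 11.95 in acute, 106, 130.4 and 125 in DTPs, 86.2, 70.2 and 80.3 in short washout and 104, 70.4 and 74.6 in long washout. DTPs were again above DMSO and acute without overlap. Changes of DTPs against DMSO were 1.29 in PC9, 1.26 in HCC827, 1.98 in H1975 and 2.78 in HCC2935, and against acute 0.71 in PC9, 2.22 in HCC827, 1.04 in H1975 and 3.08 in HCC2935. Acute drug alone raised it in PC9 (0.58) and H1975 (0.94) and lowered it in HCC827 (-0.95). The HCC827 call was lost when DMSO replicate 1 or 2 or acute replicate 1, 2 or 3 was left out (edgeR adjusted p 0.0727 to 0.135). Long washout changes were 0.99 in PC9, 1.26 in HCC827, 0.86 in H1975 and 2.24 in HCC2935, all called. The fall in HCC2935 after short washout was lost when DTPs replicate 2 or 3 or short washout replicate 1, 2 or 3 was left out (edgeR adjusted p 0.0868 to 0.200).

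CA9 (carbonic anhydrase IX, a membrane enzyme and HIF target, chr9:35673856-35681159) was near 0 outside H1975. In PC9 its counts were 34, 13 and 18 in DMSO, 4, 1 and 1 in acute, 0, 0 and 4 in DTPs, 0, 0 and 0 in short washout and 2, 0 and 0 in long washout, so it passed the filter through DMSO alone and its calls there, counted among the lower PC9 members, are not read. HCC827 had 0 counts in all 15 libraries and HCC2935 had 1 count in 1 library. In H1975, CA9 stood at 20.97, 6.05 and 12.6 CPM in DMSO, 4.02, 7.46 and 13.3 in acute, 6.75, 7.53 and 5.95 in DTPs, 5.18, 5.24 and 6.76 in short washout and 8.45, 9.48 and 13.8 in long washout. Acute, DTP and long washout ranges reached into the wide DMSO range, and CA9 was not called in H1975 (-0.68 acute and -0.97 DTPs).

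Among the other HIF targets, NDRG1, a stress-induced gene linked to differentiation, rose under acute drug in PC9 (1.30), H1975 (0.78) and HCC2935 (2.15) and fell in HCC827 (-0.83). Its DTP changes were 1.71 in PC9, -2.02 in HCC827, 1.31 in H1975 and 0.90 in HCC2935, all called. HCC2935 NDRG1 ran from 8.87 to 12.1 CPM in DMSO to 35.9 to 53.8 in acute, 15.5 to 24.9 in DTPs and 8.55 to 10.03 in short washout, where the fall was -0.98 ± 0.20. That last call was lost when DTPs replicate 1 or short washout replicate 1, 2 or 3 was left out (edgeR adjusted p 0.0503 to 0.0763). In PC9 long washout NDRG1 was called (0.71), and not without replicate 3 (0.26). The mitophagy receptors BNIP3 and BNIP3L also parted by line. BNIP3 fell under acute drug by 0.47, 1.48 and 0.84 in PC9, HCC827 and H1975 and rose in HCC2935 (0.34). The PC9 call was lost without DMSO replicate 3 (edgeR adjusted p 0.0774) and the HCC2935 call without DMSO replicate 1 or acute replicate 2 (0.0576 to 0.0752). BNIP3L fell in HCC827 (-0.75) and rose in HCC2935 (0.54). In HCC827 all 6 members of this role that were tested fell under acute drug, against 3 of 7 in PC9 (CA9 among them), 1 of 7 in H1975 and 1 of 6 in HCC2935, and 0, 2, 2 and 4 rose in HCC827, PC9, H1975 and HCC2935. Of all genes tested, 20.2%, 31.7%, 23.8% and 22.2% fell and 18.7%, 34.5%, 27.8% and 24.9% rose in that order of lines. The counts of H1975, the rises of PC9 and the falls of HCC2935 were thus near or below the all-gene shares.

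**Figure D4:**
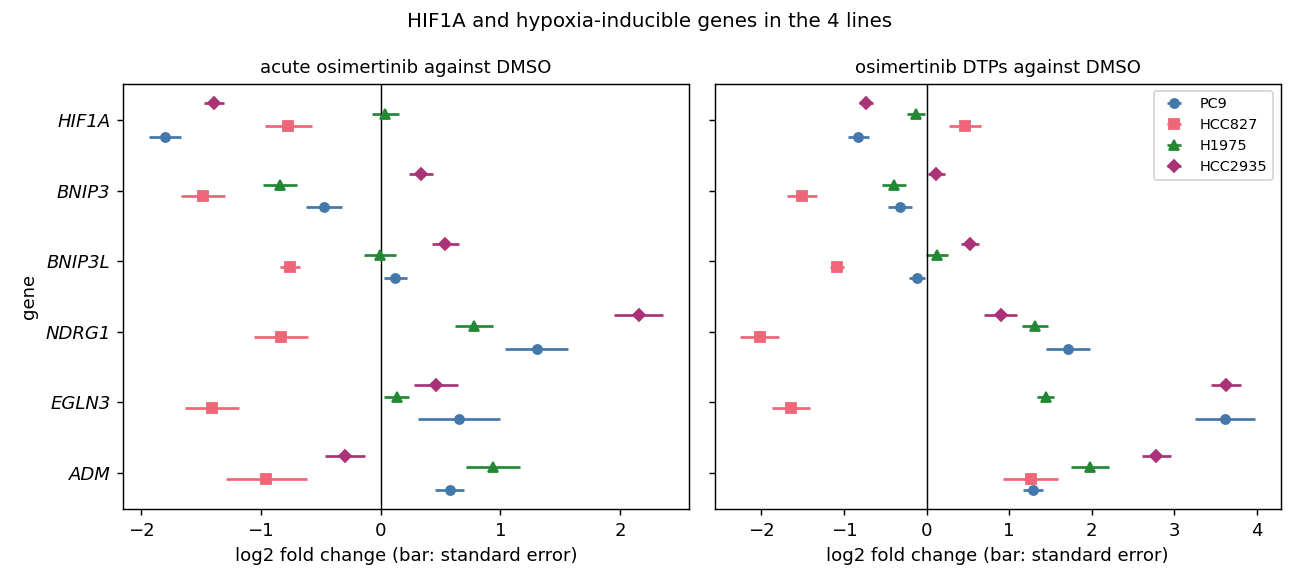
Log2 fold change with its SE of HIF1A, BNIP3, BNIP3L, NDRG1, EGLN3 and ADM against DMSO, for acute drug and DTPs in each line. HCC827 lies below 0 for BNIP3, BNIP3L, NDRG1 and EGLN3, while ADM in DTPs lies above 0 in all 4 lines.

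Neighbouring pathways were read from lists of genes that are not members. Of 18 further HIF targets, 9, 11, 4 and 3 fell and 5, 1, 8 and 5 rose under acute drug in PC9, HCC827, H1975 and HCC2935. Of all genes tested, 31.7%, 20.2%, 23.8% and 22.2% fell and 34.5%, 18.7%, 27.8% and 24.9% rose, so 4 of 18 lower in H1975 and 5 of 18 higher in HCC2935 were close to all genes. AK4, a mitochondrial adenylate kinase, fell by 3.73, 1.34, 0.57 and 0.48 and ERO1A, an oxidase of the endoplasmic reticulum, by 0.60, 0.83, 0.58 and 0.98, while MXI1, an antagonist of MYC, rose by 0.89, 1.00, 1.18 and 1.60. In DTPs 8, 9, 5 and 2 of the 18 were lower than DMSO and 7, 4, 6 and 7 higher (all genes 33.5%, 20.4%, 25.7% and 25.8% lower and 35.7%, 23%, 26% and 27% higher). LOX, a collagen crosslinking enzyme, was higher there by 1.04 in PC9, 1.16 in H1975 and 5.58 in HCC2935. Of the 9 HIF subunits and oxygen sensors (8 tested in HCC827), acute drug raised 4, 3, 3 and 3 and lowered 4, 2, 2 and 1. CITED2, which competes with HIF for a coactivator, was higher in DTPs of all 4 lines (3.03, 2.19, 2.21 and 0.36).

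Of 11 genes of the pyruvate dehydrogenase complex and of pyruvate entry, acute drug lowered 7, 5, 3 and 3 and raised 3, 2, 2 and 1. The 3 of 11 lower in H1975 and HCC2935 stand beside 23.8% and 22.2% of all genes, and the counts of the lists that follow are set against the same all-gene shares, from which nothing particular to them is read. PDHA1, the catalytic subunit that the kinases phosphorylate, fell by 0.69, 0.52, 0.45 and 0.25, and DLD by 0.36, 0.60, 0.45 and 0.29, while PDPR, a regulator of the opposing phosphatase, rose by 0.32, 0.41, 0.62 and 0.73. In the pentose phosphate pathway (7 genes) 5, 2, 3 and 2 rose and 2, 3, 3 and 3 fell. TKT, its transketolase, rose by 0.89, 0.67, 0.64 and 0.52, and RPIA fell by 0.69, 0.79, 1.09 and 0.35. TIGAR, which degrades fructose 2,6-bisphosphate, fell by 1.11, 0.93, 1.51 and 1.03, and was among 27 other isozymes and transporters, of which 18, 16, 19 and 18 could be tested, 5, 1, 3 and 1 fell and 7, 4, 6 and 4 rose. The gluconeogenesis list (7 genes, 5 or 6 tested) had 2, 3, 2 and 2 lower and 2, 0, 2 and 2 higher, with the aspartate aminotransferases GOT1 and GOT2 lower in all 4 lines (-0.92, -1.23, -0.95 and -0.75, and -0.88, -0.79, -0.74 and -0.61). Among 5 genes of the glucose sensor MondoA, TXNIP, its main target and a brake on glucose uptake, rose by 1.63, 0.89, 1.24 and 0.73 under acute drug. In DTPs TXNIP was higher in PC9 and H1975 (1.73 and 1.54), lower in HCC2935 (-0.93) and not called in HCC827 (0.03).

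Reads of abundant glycolytic genes can be shared with copies elsewhere. Of the 34 members, 14 have named pseudogenes in the GENCODE annotation (143 in all), none of them listed in the deposited tables, and 21 members overlap a gene on the opposite strand and 17 one on the same strand. Overlap was taken on whole gene spans, introns included, so it does not show that reads are shared. Where they are shared, the counts rest on how the deposited estimates divided them.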

How the data were processed

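RNA sequencing of 60 libraries was analysed from 2 tables that the authors deposited. The first holds estimated counts per gene made by the authors, which need not be whole and were rounded here, and the second holds log2 TPM values that the authors deposited with 0.01 added before the logarithm. GEO's processing notes name HISAT2 2.1.0, Salmon 0.8.2 and hg38, without their roles; strand was not given in the sources used here. Both tables give 19712 gene symbols. Columns were matched to samples by name, and 0 columns belonged to no sample.

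Within each line the 15 libraries of its 5 arms were fitted together with edgeR 4.0.16 (R 4.3.3), using filterByExpr, TMM and the quasi-likelihood F-test, with Benjamini-Hochberg adjustment over all genes tested and a call at adjusted p under 0.05. The study's methods state no test for these tables. CPM values are TMM-scaled within a line. A joint fit of all 60 libraries in 20 groups gave the mean change over the 4 lines and the test of unequal changes. Depth of 17.7 to 49.1 M counts limits low genes such as PDK4 and CA9. Squared differences between replicates of a group averaged 8.97 to 138 times the variance of the counting error.

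Labels number the replicates 1 to 3 in every group. Deviations from group means of same-numbered libraries correlated in all 3 pairs for short washout against DTPs in HCC827 (0.54, 0.24 and 0.34) and H1975 (0.11, 0.27 and 0.22), which were taken as paired there. They were also positive in all 3 pairs for acute against DMSO in HCC2935 (0.09, 0.03 and 0.19), which was not taken as paired. With the block in the 6 libraries of that comparison, genes called went from 6623 to 7484. In no other comparison were all 3 pairs positive. Replicates are labelled biological triplicates; whether they came from separate cultures is not given beyond that.

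The members and all gene lists were chosen with earlier results of these data known. Values of every library are printed for SLC2A1, SLC2A3, HK2, LDHA, PDK1, PDK4 and CA9, and for the 2 highest and 2 lowest members of each comparison by mean log2 fold change over the lines, among members called the same way in at least 3 lines (PDK2, PGAM1, ENO1, ADM, EGLN3 and PGK1 were added so). Alternatives were RLE size factors, library size alone, a minimum of 10 counts in every library, no filter, the replicate block, DESeq2 1.42.0, limma 3.58.1 on log2 TPM, the 6 libraries compared alone, the joint fit of 60 libraries, a threshold of 0.01 and leaving out each library. The replicate block within the 6 libraries was chosen after seeing the data. Gene positions are from the GENCODE annotation of GRCh38 and promoters from RefSeq (GRCh38.p14). Listed genes with no row in both tables were not analysed here. Python 3.11.15 with pandas 2.3.3, numpy 2.4.6 and matplotlib 3.10.9 gave the tables and plots.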

Additional observations from a re-analysis of the deposited data

Results flagged for a closer look

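Results were put here when a test in the joint fit of 60 libraries found that the change differed among the 4 lines and, for single genes, when the gene was called higher in at least 1 line and lower in another. Unequal changes were called for 30 of 34 members under acute drug (41.4% of all genes), 32 in DTPs against DMSO (63.9%), 27 in DTPs against acute (54.3%) and 31 in long washout (57.1%).

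The distance between the highest and the lowest log2 fold change over the lines measures how far they parted. Under acute drug it was 2.99 for NDRG1 (edgeR adjusted p 2.22e-08 for the difference), 2.06 for EGLN3 (2.03e-05), 2.01 for SLC2A1 (8.30e-07), 1.89 for ADM (0.000112), 1.82 for BNIP3 (5.30e-08), 1.48 for ALDOC (0.00451), 1.40 for PFKFB3 (4.49e-06), 1.29 for BNIP3L (1.56e-07), 0.978 for PFKM (7.07e-05) and 0.935 for PFKFB2 (0.000738). HCC827 was the lowest of the 4 lines for NDRG1, EGLN3, SLC2A1, ADM, BNIP3, ALDOC, PFKFB3 and BNIP3L.

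In DTPs against DMSO the distance was 5.27 for EGLN3 (edgeR adjusted p 2.12e-16), 4.00 for PDK4 (1.14e-08), 3.73 for NDRG1 (1.55e-12), 1.88 for PFKFB3 (2.32e-09), 1.61 for BNIP3L (3.96e-11), 1.27 for PFKFB2 (4.88e-06), 0.817 for PFKM (0.000359) and 0.724 for PFKL (0.00014). HCC827 was lowest for EGLN3, NDRG1, PFKFB3 and BNIP3L, and H1975 for PDK4 and PFKFB2. Groups of 3 libraries are too small for a search for single outlying samples.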

How the results depend on the processing

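The 20 comparisons within lines gave 370 called member values. All of them kept their direction under every alternative but PFKL in PC9 DTPs against acute, which went from -0.19 to 0.078 (not called) under limma on log2 TPM. Calls kept numbered 368 of 370 with DESeq2, 362 with RLE size factors, 354 with library size alone, 355 without a filter, 357 of 363 with at least 10 counts in every library, 343 with limma, 340 with the joint fit, 340 with the 6 libraries compared alone, 296 at a threshold of 0.01, and 1980 of 2220 with 1 library left out. Limma moved the median of all genes in PC9 DTPs against DMSO from 0.06 to 0.30 (library size alone to 0.20), in PC9 long washout from 0.02 to 0.18 and in HCC2935 DTPs from 0.04 to 0.19.

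Counts of members called moved by over 1.5 times as follows. At a threshold of 0.01 they were 12 in PC9 DTPs against acute (19 at 0.05), 0 in PC9 short washout (6), 15 in H1975 acute (24), 6 in H1975 DTPs against acute (12) and 1 in HCC2935 short washout (3). PC9 short washout had 14 with DESeq2 and 22 with its 6 libraries alone. H1975 short washout had 1 with DESeq2 (0 with edgeR), and HCC2935 short washout 6 with DESeq2 and 5 with all 60 libraries. Leaving out 1 library gave 0 to 3 in PC9 short washout, 6 to 14 in H1975 DTPs against acute, 0 to 1 in H1975 short washout (1 without DTPs replicate 2) and 1 to 4 in HCC2935 short washout. The cause was not tested.

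With the replicate block 356 of 370 calls were kept and PC9 short washout had 3 members; the block within the 6 libraries gave 14 there, 15 in H1975 acute, 5 in H1975 short washout and 1 in HCC2935 short washout, and kept 324 of 370 calls. Depth limits PDK4 and CA9, which were low in every line or most of them.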
